A study of Mus musculus with 10 samples.

Results

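The collagen chain genes of the pituitary intermediate lobe (IL) were followed across 3 mouse genotypes. They were taken as the genes whose Ensembl identifier has a mouse symbol of the form Col, number, a, number. This gave 44 of the 29527 genes measured, 43 by their current symbol and Col26a1 by an older symbol. Bulk RNA was sequenced from dissected IL, with 1 library per mouse. There were 4 wild-type (WT) mice, 3 p27-/- mice and 3 mice of the genotype p27-/-;Sox2+/-, all aged 2 to 3 mo. The p27-/- mice lack both copies of Cdkn1b, which encodes the cell cycle inhibitor P27 and whose loss leads to IL tumors later in life. The p27-/-;Sox2+/- mice carry the same loss and in addition have 1 copy of Sox2, which encodes a stem cell transcription factor. The deletions are carried by every cell of the animal, so any fibroblasts and vessel cells in the dissected tissue are mutant as well as its endocrine cells. All animals were on a mixed genetic background, males and females were used, and the labels do not name the Sox2 allele.

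Collagens are secreted proteins in which chains wind around each other into a rigid helix. Fibrillar collagens build the fibers of connective tissue, type IV builds the sheet-like network of basement membranes, type VI forms beaded filaments, FACIT collagens decorate the surface of fibrils, multiplexins sit in basement membrane zones and can release fragments such as endostatin, and transmembrane collagens are anchored in the cell surface. In endocrine glands they are made mainly by fibroblasts and by the cells of capillaries. By class, the 44 genes comprise 11 fibrillar, 6 type IV, 6 type VI, 3 short-chain network, 1 anchoring fibril, 9 FACIT, 2 multiplexin, 4 transmembrane and 2 other chains.

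The values are normalised expression on a log2 scale, as deposited. A gene was tested where its mean over the 10 libraries was at least 3.32, which is 10 on the linear scale, and 37 of the 44 collagen genes passed this filter. Col28a1, with a mean of 3.32, lay just under the limit, followed by Col26a1 (2.97), Col9a1 (2.5), Col6a6 (1.58), Col6a4 (1.05), Col6a5 (0.10) and Col22a1 (-0.39). The lowest means among the tested members were those of Col8a2 and Col9a3, both at 3.58. Genotypes were compared with limma, and a gene passed the test where its p-value, adjusted over all 17268 tested genes, was under 0.05. The table holds no read counts, so the depth of each library is unknown, and precision is limited by how few mice there were.

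As a check of the labels, Cdkn1b averaged 8.61 ± 0.19 (SD, n = 4) over the WT libraries, 8.18 ± 0.12 over the 3 p27-/- libraries and 7.89 ± 0.19 over the 3 p27-/-;Sox2+/- libraries. Both mutants lay below WT without overlap, but the transcript was still counted, and a gene-level value does not show from which exons. Sox2 was at 7.46 ± 0.20 in WT, 7.28 ± 0.19 in p27-/- and 7.0 ± 0.10 in p27-/-;Sox2+/- IL, and its difference of -0.46 between the last group and WT did not pass the test (adjusted p = 0.0811). Pomc had a mean of 18.55 over the 10 libraries. It encodes a hormone precursor made by melanotrophs, the endocrine cells of the IL, and also by corticotrophs of the anterior lobe. Genes of neighbouring tissue were measured as well. The 8 posterior lobe markers were all above the filter. The summed linear level of the 7 anterior lobe markers found ranged from 14931 to 222704 among WT libraries, highest in WT 2. It ranged from 7002 to 96270 in p27-/- and from 10863 to 28963 in p27-/-;Sox2+/- IL. Prl, the highest of the 7 in WT 2, was at 17.54 there and between 11.4 and 13.09 in the other WT libraries. In bulk RNA, fewer cells of a type and less RNA per cell cannot be told apart.

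In WT IL, the level per kb of exon was highest for chains of the transmembrane, fibrillar and network classes. On the log2 scale, level per kb was 5.51 for Col25a1, 5.39 for Col1a2, 5.20 for Col11a1, 4.91 for Col23a1, 4.80 for Col3a1 and 4.71 for Col1a1. The high places of Col25a1 and Col23a1 depended on the library, with SDs of 1.19 and 1.2 between WT mice. Before scaling to length, WT 2 had only 7.03 and 5.75, beside WT means of 8.73 and 7.43. WT 2 was also the WT library with the lowest mean of posterior lobe markers. Col1a1 and Col1a2 are the chains of type I, the main fiber collagen of the body, Col3a1 forms the finer type III fibers, and Col11a1 is a minor fibrillar chain that nucleates fibrils. Col8a1, a chain of the short-chain network found around vessels, followed at 4.52, and the basement membrane chains Col4a1 and Col4a2 stood at 4.43 and 4.42. The other type IV chains lay lower, between 3.28 for Col4a5 and 1.89 for Col4a6. Col7a1, which forms the anchoring fibrils of skin, was lowest at 0.47. Of the 36 neighbouring pairs in this order, 31 were separated by no more than the larger of their WT SDs, so that most ranks next to each other were not distinguishable. Exon lengths came from another annotation than the one the reads were counted on, which limits levels per kb to a coarse order.

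**Figure D1:**
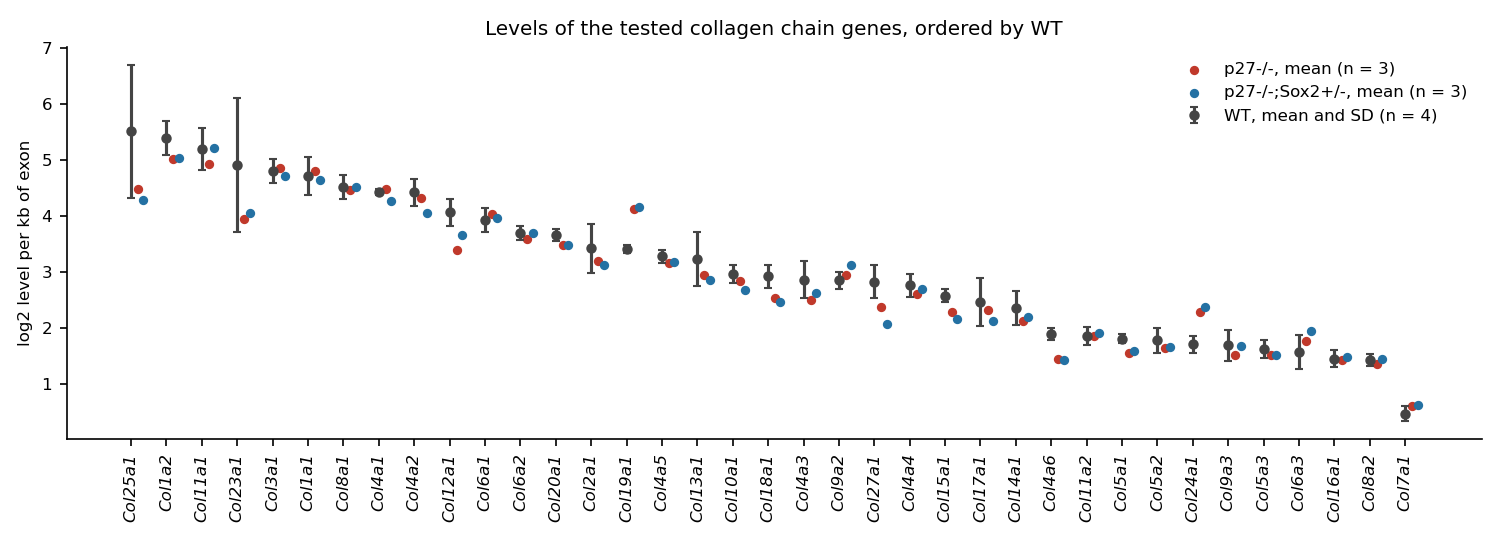
Log2 level per kb of exon of the 37 tested collagen chain genes, ordered by the WT mean. Black points and bars are the mean and SD of 4 WT mice, and red and blue points are the means of 3 p27-/- and 3 p27-/-;Sox2+/- mice. Col25a1 and Col23a1 have by far the widest WT bars, with SDs of 1.19 and 1.20, and the mutant means of Col19a1 and Col24a1 sit above their WT bars.

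In p27-/- IL, 4 of the 37 tested collagen genes passed the test against WT, 2 higher and 2 lower. That is 10.8% of the members, beside 7.78% of all tested genes, of which 3.16% were higher and 4.62% lower. The FACIT chain gene Col19a1 and the fibrillar chain gene Col24a1 rose, while the FACIT chain gene Col12a1 and the type IV chain gene Col4a6 fell. The log2 fold changes of the 37 ranged from -1.04 to 0.72 with a median of -0.14, beside a median of 0.01 over all tested genes, and 27 were negative. The p27-/- and WT libraries did not overlap for 8 members, 2 higher and 6 lower in p27-/-, beside 20.6% of all tested genes.

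The p27-/-;Sox2+/- IL had 4 of the 37 members pass the test against the same WT libraries, again 2 higher and 2 lower. The share among all tested genes was 2.71%, with 0.828% higher and 1.88% lower. Col19a1 and Col24a1 rose and Col4a6 fell, and the fourth gene was the fibrillar chain gene Col27a1, which fell. The median log2 fold change was -0.12 and 27 of the 37 were negative, with a range of -1.23 to 0.75. The libraries did not overlap with WT for 9 members, 3 higher and 6 lower, beside 15.0% of all tested genes. Because both mutants were set against the same 4 WT libraries, the comparisons are not independent of each other.

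The mutants were compared directly to ask whether the dose of Sox2 changes collagen expression when p27 is absent. With limma, 0 of the 37 members passed the test, beside 0.145% of all tested genes. An unadjusted p under 0.05 was held by 0 of them, beside 1148 of all 17268 tested genes. Log2 differences lay between -0.30, for Col27a1, and 0.29, for Col11a1. The libraries of the mutants did not overlap for 3 members, Col11a1, Col12a1 and Col9a2, each higher in p27-/-;Sox2+/- IL, beside 15.3% of all tested genes. The 95% interval of the difference was -0.23 to 0.29 for Col19a1 and -0.24 to 0.43 for Col24a1, but -1.56 to 1.17 for Col25a1. It was -0.74 to 0.13 for Col27a1, -0.71 to 0.42 for Col1a1 and -0.09 to 0.67 for Col11a1. Differences as large as some changes against WT that passed were thus not excluded for several chains.

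**Figure D2:**
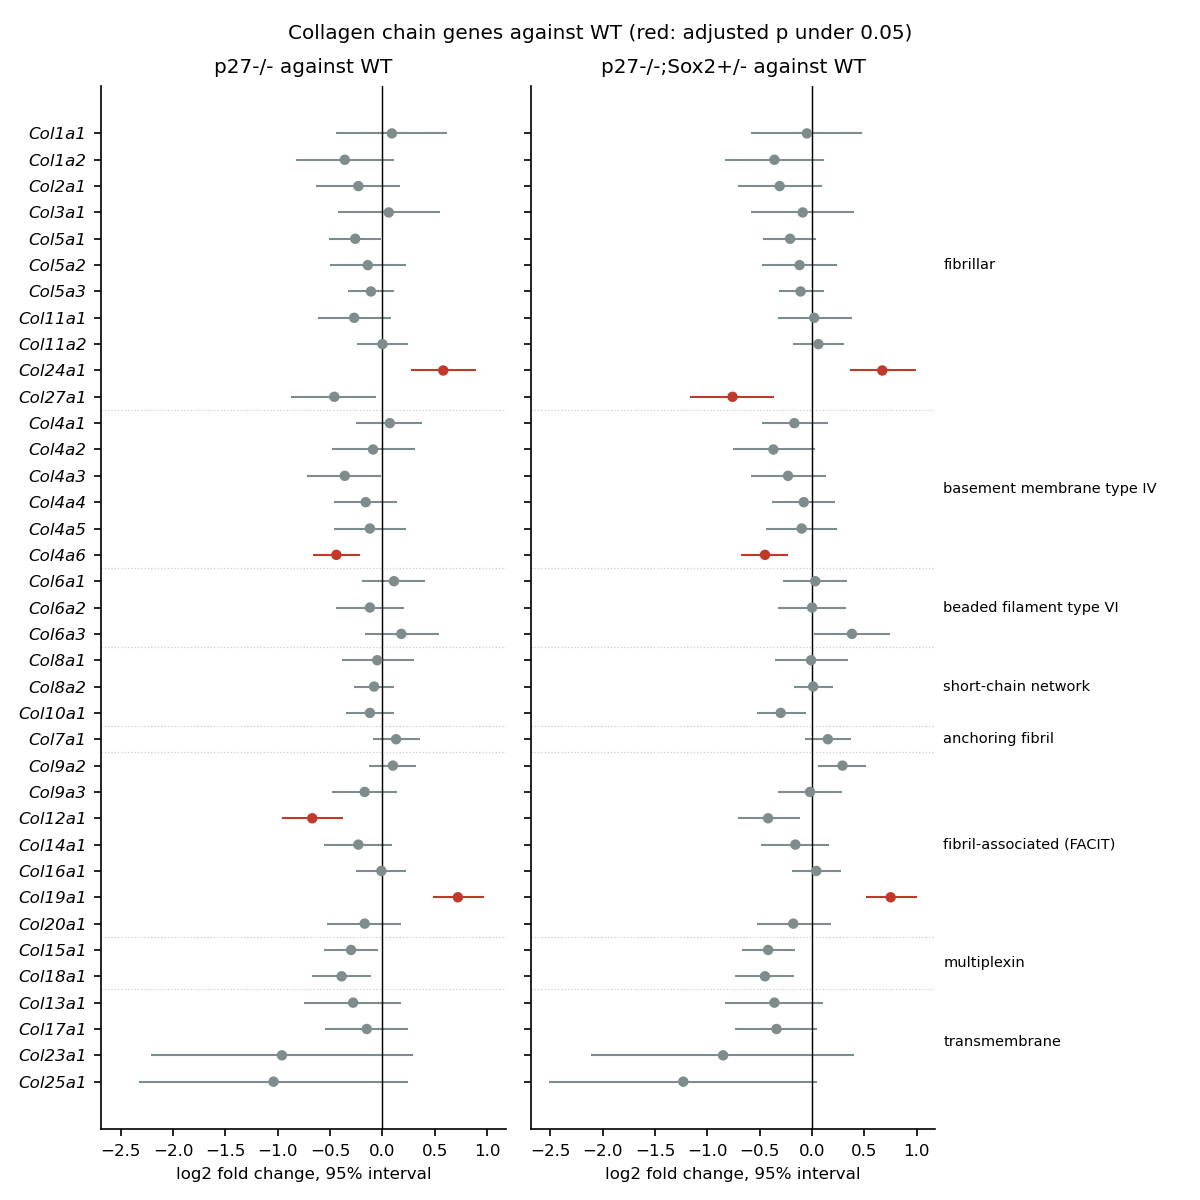
Log2 fold changes (points) with 95% intervals (lines) of the 37 tested collagen chain genes, in p27-/- against WT (left) and p27-/-;Sox2+/- against WT (right), grouped by class. Red marks an adjusted p under 0.05. Col19a1 and Col24a1 stand to the right of 0 in both panels, and Col25a1 and Col23a1 carry the widest intervals.

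Col19a1 (ENSMUSG00000026141, chromosome 1 of GRCm38, 24257683 to 24587922) encodes the chain of type XIX collagen, a fibril-associated collagen of basement membrane zones, muscle and brain. Its log2 values were 6.15, 6.30, 6.14 and 6.16 in WT 1 to 4. They were 6.83, 6.90 and 7.01 in the p27-/- libraries and 7.11, 6.93 and 6.78 in the p27-/-;Sox2+/- libraries. Every mutant library was thus above every WT library, and the mutants overlapped each other. The mean rose from 6.19 ± 0.07 (SD, n = 4) to 6.91 ± 0.09 (SD, n = 3) in p27-/- IL, 1.65-fold. This is 0.72 on the log2 scale (standard error 0.11, adjusted p = 0.00295 with limma). The rise in p27-/-;Sox2+/- IL was 0.75 (standard error 0.11, adjusted p = 0.00521), or 1.68-fold. Col19a1 also had one of the smallest spreads between mice of a genotype among the members, 0.11 on the log2 scale. It remained past the threshold against WT whichever of the 10 libraries was left out.

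Col24a1 (ENSMUSG00000028197, chromosome 3, 145292472 to 145552013) encodes a minor fibrillar chain known from developing bone and eye. Its log2 values were 4.74, 4.78, 4.48 and 4.54 in WT, 5.49, 4.89 and 5.27 in p27-/- and 5.27, 5.50 and 5.15 in p27-/-;Sox2+/- IL. The lowest mutant value, in p27-/- 2, was 0.11 above the highest WT value. Against WT, Col24a1 rose by 0.58 in p27-/- IL (adjusted p = 0.0300 with limma) and by 0.67 in p27-/-;Sox2+/- IL (adjusted p = 0.0261), each with a standard error of 0.15. The first call was lost without WT 3 (adjusted p = 0.0675), WT 4 (0.0746), p27-/- 1 (0.134) or p27-/- 3 (0.113), and the second without WT 3 (0.0598), WT 4 (0.0671), p27-/-;Sox2+/- 1 (0.0801) or p27-/-;Sox2+/- 2 (0.149). Its direction was kept each time.

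Because Col19a1 and Col24a1 were the members that rose in both mutants, their promoter windows are shown, 250 bases before to 50 bases after the transcript start, from RefSeq on GRCm38.p6, 5′ to 3′ on the strand of the gene. The Col19a1 window is chr1:24587388-24587687 on the minus strand and the Col24a1 window is chr3:145292222-145292521 on the plus strand. The whole Col19a1 window lies within the span of the gene, which ends at 24587922. Its transcript start is therefore not the outermost one annotated. Capitals mark matches, on either strand, to 6 short motifs: CCAAT (a box common in promoters), GGGCGG (a GC box), TATAAA (found before some transcript starts), the word AACAAT together with ACAAAG, which SOX proteins are known to bind, and TGACGTCA, the cAMP response element, which was added after the sequences had been seen.
Col19a1: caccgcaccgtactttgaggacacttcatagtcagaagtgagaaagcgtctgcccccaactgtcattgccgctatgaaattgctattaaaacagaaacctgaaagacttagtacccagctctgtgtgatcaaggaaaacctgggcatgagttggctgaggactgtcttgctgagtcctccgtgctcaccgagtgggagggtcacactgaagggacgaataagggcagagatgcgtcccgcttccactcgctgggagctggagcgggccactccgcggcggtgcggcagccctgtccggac
Col24a1: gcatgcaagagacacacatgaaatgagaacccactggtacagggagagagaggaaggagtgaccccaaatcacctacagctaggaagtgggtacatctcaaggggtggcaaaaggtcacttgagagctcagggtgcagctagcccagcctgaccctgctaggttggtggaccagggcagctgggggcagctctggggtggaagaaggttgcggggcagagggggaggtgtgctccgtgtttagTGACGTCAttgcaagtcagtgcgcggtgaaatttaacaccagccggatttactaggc
The Col19a1 window holds a match to none of these words. The Col24a1 window holds 1 match, to TGACGTCA, the word added after the sequences had been seen. Its share of 1.79% (588 of the 32851 promoters of the same length) therefore does not show the match to be unusual. Among the 38 collagen promoters only this 1 held the word. Matches of this kind are of letters and are not measured binding sites. Promoters were found for 35 of the 44 genes. GGGCGG was held by 60.5% of the 38 collagen promoters and by 35.7% of all promoters, CCAAT by 34.2% and 37.4%, TATAAA by 13.2% and 13.6%, AACAAT by 2.63% and 10.7%, and ACAAAG by 13.2% and 18.7%.

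Col12a1 (ENSMUSG00000032332, chromosome 9, 79598987 to 79721141) encodes type XII collagen, which bridges fibrils in tissues under tension. Its log2 values were 7.99, 7.70, 8.29 and 8.03 in WT and 7.48, 7.10 and 7.41 in p27-/- IL, without overlap. It fell in p27-/- IL by 0.67 on the log2 scale (standard error 0.14, adjusted p = 0.0112 with limma), or 1.59-fold. In p27-/-;Sox2+/- IL the values of 7.63, 7.53 and 7.60 lay between those of the other genotypes, and the log2 fold change of -0.42 did not pass the test (adjusted p = 0.121). The difference between the mutants, 0.25, did not pass either (adjusted p = 0.866), so a difference in response is not shown. The call in p27-/- IL was lost without p27-/- 2 (adjusted p = 0.0593), and Col12a1 passed in p27-/-;Sox2+/- IL without WT 2 (adjusted p = 0.0434).

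Col27a1 (ENSMUSG00000045672, chromosome 4, 63214009 to 63334991), a fibrillar chain gene of cartilage, had values of 6.32, 6.89, 6.25 and 6.67 in WT, 6.15, 5.84 and 6.23 in p27-/- and 5.62, 5.50 and 6.18 in p27-/-;Sox2+/- IL. All mutant libraries lay below WT, although the gap between WT 3 and p27-/- 3 was only 0.02. The log2 fold change of -0.46 in p27-/- IL did not pass (adjusted p = 0.154 with limma), and that of -0.76 in p27-/-;Sox2+/- IL did (standard error 0.19, adjusted p = 0.0476). Among the members' calls against WT, the latter had the highest adjusted p. It was lost without WT 2 (adjusted p = 0.0757), WT 4 (0.106), p27-/- 1 (0.0655), p27-/- 2 (0.0582), p27-/- 3 (0.0625), p27-/-;Sox2+/- 1 (0.155) or p27-/-;Sox2+/- 2 (0.226).

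Col4a6 (ENSMUSG00000031273, chromosome X, 141165403 to 141474095) encodes a type IV chain that assembles with the product of Col4a5 in a subset of basement membranes. Its values were 4.87, 4.89, 5.02 and 4.76 in WT, 4.38, 4.51 and 4.45 in p27-/- and 4.33, 4.37 and 4.61 in p27-/-;Sox2+/- IL. Both mutants lay below WT without overlap. It was 1.36-fold lower in p27-/- IL (-0.44 on the log2 scale, adjusted p = 0.0239 with limma) and 1.37-fold lower in p27-/-;Sox2+/- IL (-0.45, adjusted p = 0.0356), with a standard error of 0.10 for each. The call in p27-/- IL was lost without p27-/- 1 (adjusted p = 0.0971), p27-/- 2 (0.0577) or p27-/- 3 (0.0890). The call in p27-/-;Sox2+/- IL was lost without any library other than WT 1 and p27-/-;Sox2+/- 3, with adjusted p-values from 0.0502 to 0.175.

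**Figure D3:**
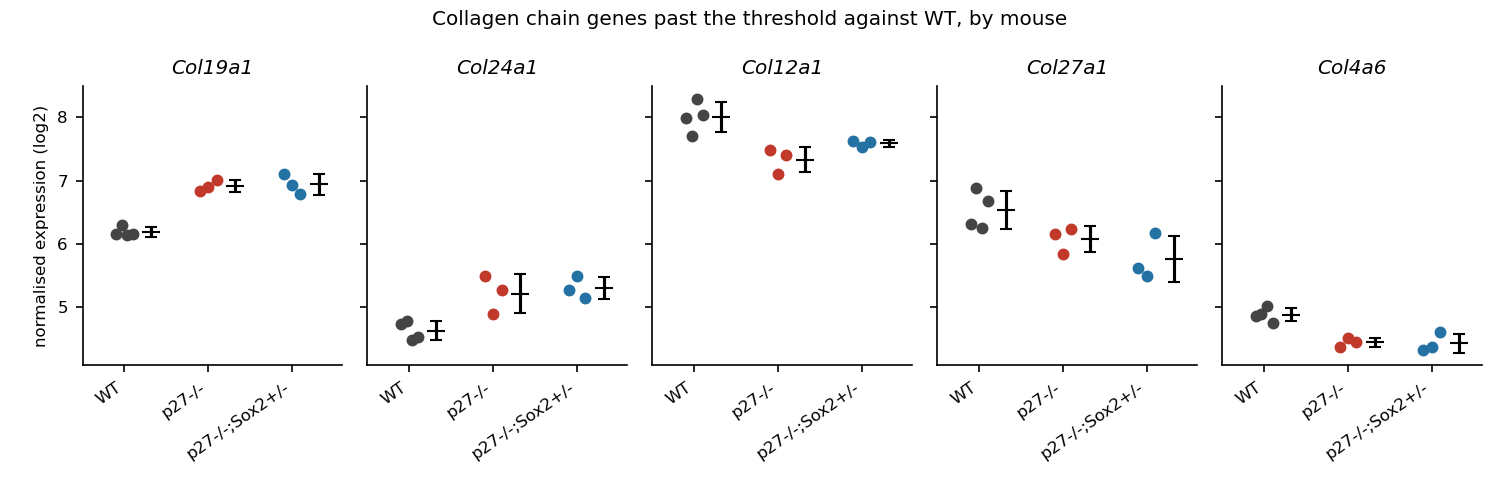
Normalised log2 expression of the 5 collagen chain genes that passed the test against WT in either mutant. Each point is 1 mouse, and the bar beside it gives the mean and SD of its genotype. For Col19a1 the WT points lie between 6.14 and 6.30 and all mutant points between 6.78 and 7.11.

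The type IV genes are arranged head to head in the genome. Col4a6 and Col4a5 start 1275 bases apart on opposite strands. Col4a5 had log2 fold changes of -0.12 in p27-/- and -0.10 in p27-/-;Sox2+/- IL, and neither passed the test (adjusted p = 0.684 and 0.806 with limma). Whether Col4a6 and Col4a5 differed in response was not tested. Their windows, chrX:141474027-141474326 on the minus strand and chrX:141475169-141475468 on the plus strand, are set side by side, with matches to the same motifs in capitals.
Col4a6: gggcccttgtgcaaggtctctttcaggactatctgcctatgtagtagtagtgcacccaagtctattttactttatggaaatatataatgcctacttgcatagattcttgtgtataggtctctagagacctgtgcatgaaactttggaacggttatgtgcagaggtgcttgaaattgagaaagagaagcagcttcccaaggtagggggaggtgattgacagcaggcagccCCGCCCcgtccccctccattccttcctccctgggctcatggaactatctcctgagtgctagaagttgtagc
Col4a5: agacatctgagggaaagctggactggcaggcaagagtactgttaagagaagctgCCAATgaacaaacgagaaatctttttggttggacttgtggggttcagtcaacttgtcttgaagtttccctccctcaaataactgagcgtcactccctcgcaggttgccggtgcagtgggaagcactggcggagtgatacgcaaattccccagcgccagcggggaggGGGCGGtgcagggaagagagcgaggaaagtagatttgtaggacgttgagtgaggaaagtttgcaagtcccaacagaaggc
Each window holds 1 GC box, on opposite strands relative to its gene, and the Col4a5 window in addition holds 1 CCAAT. The other pairs overlap in the annotation, Col4a1 and Col4a2 by 84 bases and Col4a4 and Col4a3 by 113 bases, and without strand in the libraries reads from the overlap cannot be assigned. The fold changes of Col4a3 and Col4a4 were -0.36 and -0.16 in p27-/- and -0.23 and -0.08 in p27-/-;Sox2+/- IL, and none of them passed.

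The main chains of the basement membrane did not pass the test. Col4a1 had WT values of 7.24, 7.17, 7.14 and 7.23, p27-/- values of 7.25, 6.97 and 7.56 and p27-/-;Sox2+/- values of 7.16, 6.73 and 7.19. WT mice thus lay between 7.14 and 7.24, while mutant mice reached from 6.73 to 7.56. Its fold change was 0.07 (95% interval -0.25 to 0.38) in p27-/- and -0.17 (-0.48 to 0.15) in p27-/-;Sox2+/- IL. For Col4a2 it was -0.09 (-0.48 to 0.31) and -0.37 (-0.76 to 0.03). Of the multiplexins of the basement membrane zone, Col15a1 had fold changes of -0.30 (adjusted p = 0.142 with limma) and -0.42 (adjusted p = 0.0813). Col18a1, the source of endostatin, had -0.39 (adjusted p = 0.0881) and -0.45 (adjusted p = 0.0854). For both genes, the p27-/-;Sox2+/- libraries lay below WT without overlap. The p27-/- libraries did so for Col15a1 but not for Col18a1. Col18a1 passed the test in each mutant without WT 2, with adjusted p-values of 0.0294 in p27-/- and 0.0293 in p27-/-;Sox2+/- IL.

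The fibers of connective tissue were represented by types I, III and V, and 0 of their chain genes passed the test with limma. Col1a1 had WT values of 7.32, 7.0, 7.80 and 7.57, p27-/- values of 7.99, 6.84 and 7.71 and p27-/-;Sox2+/- values of 7.54, 7.01 and 7.56. The highest and the lowest value of all 10 libraries both belonged to p27-/- mice. Its fold change was 0.09 (95% interval -0.44 to 0.62) in p27-/- and -0.05 (-0.58 to 0.48) in p27-/-;Sox2+/- IL. The fold changes of Col3a1 were 0.06 and -0.09, and those of Col1a2 were -0.36 in each mutant (adjusted p = 0.336 and 0.418). Col5a1 and Col5a2, minor chains that set fibril width, had fold changes of -0.26 and -0.14 in p27-/- and -0.21 and -0.12 in p27-/-;Sox2+/- IL. Col5a1 had an unadjusted p of 0.0448 in p27-/- IL, which did not hold after adjustment (adjusted p = 0.196).

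The beaded filament chains of type VI, which surround cells in most connective tissue, included 3 tested genes. Col6a1 and Col6a2 stayed within 0.12 of WT in both mutants. Col6a3 had a fold change of 0.18 in p27-/- and 0.38 in p27-/-;Sox2+/- IL (95% interval 0.02 to 0.74, adjusted p = 0.249 with limma). Its p27-/-;Sox2+/- values of 5.26, 5.49 and 5.84 overlapped the WT range of 4.86 to 5.57. The FACIT chain gene Col9a2, a partner of type II fibrils in cartilage, had a fold change of 0.29 in p27-/-;Sox2+/- IL (adjusted p = 0.169) without overlap with WT. The short-chain gene Col10a1, known from hypertrophic cartilage, had -0.30 there (adjusted p = 0.163), also without overlap.

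The remaining 13 tested members did not pass in any comparison. Among them, Col2a1, the main fiber chain of cartilage, had values from 5.51 to 6.54 in WT, from 5.76 to 5.83 in p27-/- and from 5.54 to 5.84 in p27-/-;Sox2+/- IL, so that all mutant libraries fell inside the WT range. Col11a1 had fold changes of -0.27 and 0.02, and Col11a2 of 0.00 and 0.06. The transmembrane chain genes Col13a1, found at junctions of cells with matrix, and Col17a1, a component of hemidesmosomes, had fold changes of -0.28 and -0.15 in p27-/- and -0.36 and -0.34 in p27-/-;Sox2+/- IL. In p27-/- IL all 4 tested transmembrane genes had a negative fold change, with a median of -0.62, and in p27-/-;Sox2+/- IL the median was -0.61, but WT libraries were themselves widely spread, from 5.03 to 6.0 for Col13a1 and from 4.58 to 5.58 for Col17a1. Of the other FACIT genes, Col14a1, Col16a1, Col20a1 and Col9a3 had fold changes between -0.23 and 0.04 over both comparisons, and the fibrillar chain gene Col5a3 had -0.11 in each. Col8a1 and Col8a2, whose chains form the network around vessels and under corneal endothelium, stayed within 0.08 of WT in both mutants. Col7a1 had 0.13 and 0.15.

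The spread between mice of a genotype was larger for collagen genes than for most genes. The median SD within genotypes was 0.22 for the 37 members and 0.15 for all tested genes. It was 1.09 for Col25a1, 1.07 for Col23a1, 0.43 for Col1a1, 0.39 for Col3a1 and 0.38 for Col1a2, down to 0.10 for Col8a2. The library p27-/-;Sox2+/- 2 held the lowest value of 14 of the 37 genes and WT 4 the highest value of 11. The mutant libraries p27-/- 2 and p27-/-;Sox2+/- 2 were low in Col1a1, Col1a2, Col3a1, Col4a1 and Col4a2 together, each the lowest of its genotype.

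Col25a1 and Col23a1, which encode transmembrane collagens of neurons and other cells, were chosen for a closer description after their values had been seen. Col25a1 had log2 values of 8.84, 7.03, 9.31 and 9.73 in WT 1 to 4, of 7.70, 7.41 and 7.97 in p27-/- and of 6.78, 6.60 and 9.11 in p27-/-;Sox2+/- IL. Col23a1 shared its high and low libraries, with 7.45, 5.75, 7.98 and 8.53 in WT, 6.32, 6.57 and 6.52 in p27-/- and 5.89, 5.72 and 8.12 in p27-/-;Sox2+/- IL. Both were high in WT 1, WT 3, WT 4 and p27-/-;Sox2+/- 3 and low in the other 6 libraries, so that genotypes overlapped. The fold changes of Col25a1 were -1.04 (95% interval -2.32 to 0.24) in p27-/- and -1.23 (-2.51 to 0.05) in p27-/-;Sox2+/- IL, and those of Col23a1 were -0.96 (-2.21 to 0.29) and -0.85 (-2.11 to 0.40). These were the largest negative fold changes of the members, and none passed the test.

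The same 4 libraries were high in markers of the posterior lobe, the neural tissue that adjoins the IL. The list holds 8 genes, among them Avp and Oxt, the hormones of its nerve endings, and Rax and Lhx2 of its glial pituicytes. Its mean, centred over the 10 libraries, was 0.62, 0.63, 0.73 and 0.48 in WT 1, WT 3, WT 4 and p27-/-;Sox2+/- 3. In the other 6 libraries it was between -0.67 and -0.04. The match was not particular to this list. The centred mean of the fibroblast markers was also highest in these 4 libraries, at 0.35, 0.21, 0.24 and 0.12. It was at most -0.02 in the other 6. The summed linear level of the 8 posterior lobe markers ranged from 527 to 1075 in WT. It ranged from 523 to 651 in p27-/- and from 429 to 919 in p27-/-;Sox2+/- IL. With limma, 0 of the 8 passed the test in either mutant. An unadjusted p under 0.05 was held by 4 in p27-/- and 3 in p27-/-;Sox2+/- IL. Over all 17268 tested genes, 4155 and 3075 had one. With the posterior lobe mean added to the fit, an alternative chosen after seeing the data, the fold changes of Col25a1 became 0.30 and 0.07 and those of Col23a1 0.32 and 0.40, positive in place of negative, and none passed. With the fibroblast mean in its place they were positive too. Col25a1 then had 0.81 and 0.06 and Col23a1 0.7 and 0.31, and none passed. Which tissue the RNA of the 2 genes came from was not tested.

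**Figure D4:**
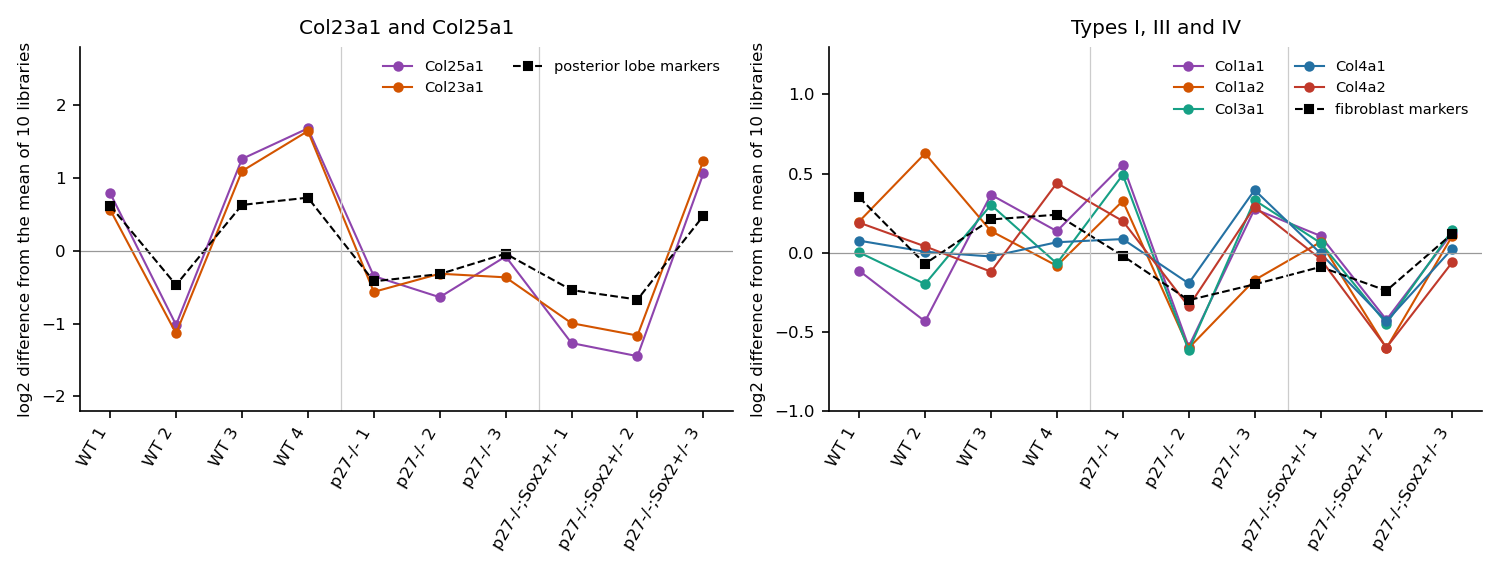
Log2 difference of each library from the mean of the 10 libraries, for Col25a1 and Col23a1 with the mean of the 8 posterior lobe markers (left), and for Col1a1, Col1a2, Col3a1, Col4a1 and Col4a2 with the mean of the 9 tested fibroblast markers (right). Each position on the horizontal axis is 1 mouse, lines only guide the eye, and thin vertical lines separate the genotypes. On the left, the collagen genes and the markers share their 4 high libraries, with marker means from 0.48 to 0.73. On the right, p27-/- 2 and p27-/-;Sox2+/- 2 are low in all 5 chains.

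Markers of the cells that make most collagen also differed between libraries. The summed linear level of the fibroblast markers ranged from 1929 to 3002 in WT, 1392 to 2539 in p27-/- and 1541 to 2512 in p27-/-;Sox2+/- IL. Of the 9 tested fibroblast markers, 2 were lower in p27-/- IL, Lum and Pdgfra, beside 4.62% of all tested genes that were lower there. In p27-/-;Sox2+/- IL 0 passed with limma, and 2 had an unadjusted p under 0.05, beside 3075 of all 17268 tested genes. The endothelial receptors Kdr and Flt1 were lower in both mutants, 2 of 9 tested endothelial markers in each, beside 4.62% and 1.88% of all tested genes that were lower in p27-/- and p27-/-;Sox2+/- IL, with summed levels of 520 to 688 in WT, 385 to 494 in p27-/- and 419 to 556 in p27-/-;Sox2+/- IL. Among 8 mural markers 0 passed in either mutant with limma. Their sums were 971 to 1932 in WT, 840 to 1062 in p27-/- and 792 to 1085 in p27-/-;Sox2+/- IL. An unadjusted p under 0.05 was found for 1 in p27-/- and 2 in p27-/-;Sox2+/- IL, beside 4155 and 3075 of all 17268 tested genes. Dpt, Cldn5, Cspg4 and Higd1b of these lists were under the filter. The paper describes the mouse IL as avascular and reports ectopic vessels in juvenile p27-/- IL. Whether the endothelial RNA came from the IL or from neighbouring tissue was not tested.

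The mean of the fibroblast markers was then added as a term in the fit, a choice made after seeing the data. With it, 0 of the 37 members passed against WT in either mutant. An unadjusted p under 0.05 was held by 6 in p27-/- and 5 in p27-/-;Sox2+/- IL. The matching share of all tested genes is not given, so these counts do not set the members apart. Calls over all tested genes fell from 1343 to 30 in p27-/- and from 468 to 54 in p27-/-;Sox2+/- IL. Col19a1 then had log2 fold changes of 0.58 (adjusted p = 0.186 with limma) and 0.65 (adjusted p = 0.0696), Col24a1 0.56 and 0.66, Col12a1 -0.41 and -0.23, Col4a6 -0.40 and -0.43, and Col27a1 -0.40 and -0.72. Standard errors were larger in this fit, at 0.17 and 0.14 for Col19a1 beside 0.11 without the term. A lost call therefore need not mean a smaller fold change. With the posterior lobe mean in place of the fibroblast mean, Col19a1 passed against WT in both mutants. Its fold changes were 0.64 (adjusted p = 0.0320 with limma) and 0.67 (adjusted p = 0.0460), and the other members did not pass. The marker means differ between genotypes as well as between mice, so that the part of marker level and the part of genotype cannot be told apart with 10 libraries.

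The enzymes and partners that make, cross-link, bind and degrade collagen were described from a list of 70 genes, of which 68 were found and 61 tested. In p27-/- IL, 7 of the 61 passed the test against WT (11.5%), 1 higher and 6 lower, beside 7.78% of all tested genes, and the median log2 fold change was -0.16, beside 0.01 over all tested genes. Of the 61, 2 passed (3.28%) in p27-/-;Sox2+/- IL, both lower, with a median of -0.11. That share is close to the 2.71% of all tested genes. Between the mutants 0 passed with limma, where 7 had an unadjusted p under 0.05, beside 1148 of all 17268 tested genes.

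Among the genes of collagen degradation and its inhibitors, Timp3, Timp4 and Mmp15 passed. Timp3, a matrix-bound inhibitor of metalloproteinases, had log2 values of 11.52, 11.02, 11.52 and 11.39 in WT, 10.42, 10.40 and 10.23 in p27-/- and 10.58, 10.29 and 10.76 in p27-/-;Sox2+/- IL. All mutant values lay below all WT values. It was 2.01-fold lower in p27-/- (log2 fold change -1.01, standard error 0.13, adjusted p = 0.000875 with limma) and 1.76-fold lower in p27-/-;Sox2+/- IL (-0.82, standard error 0.13, adjusted p = 0.00729). Timp4, of the same family, fell by 0.60 (adjusted p = 0.0216) and by 0.65 (adjusted p = 0.0249). Mmp15, a membrane-bound metalloproteinase, fell by 0.52 in p27-/- IL (adjusted p = 0.0370). Timp3 lost its call in p27-/-;Sox2+/- IL without p27-/-;Sox2+/- 2 (adjusted p = 0.0509). Timp4 lost its call in p27-/- IL without WT 4 (0.0568), p27-/- 2 (0.0890) or p27-/- 3 (0.100), and in p27-/-;Sox2+/- IL without WT 4 (0.0617), p27-/-;Sox2+/- 2 (0.144) or p27-/-;Sox2+/- 3 (0.0805). Mmp15 lost it without WT 1 (0.0521), WT 3 (0.0586), WT 4 (0.0693), p27-/- 1 (0.115), p27-/- 3 (0.166) or p27-/-;Sox2+/- 2 (0.0545). Of the 9 tested genes of degradation, 3 passed in p27-/- and 2 in p27-/-;Sox2+/- IL, all lower. Over all tested genes, 4.62% and 1.88% passed and were lower.

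Of the genes of synthesis and processing, 3 passed in p27-/- IL, P4ha1, Pcolce and Adamts3. P4ha1, the catalytic subunit of prolyl hydroxylase that stabilizes the collagen helix, was the only gene of the list that was higher and passed. Its values were 9.71, 9.87, 9.43 and 9.59 in WT and 10.05, 10.08 and 10.32 in p27-/- IL, a log2 fold change of 0.50 (adjusted p = 0.0214 with limma). Its p27-/-;Sox2+/- values of 9.51, 9.73 and 9.40 overlapped WT. The difference between the mutants was -0.60 without overlap and did not pass the test (adjusted p = 0.105). Of the propeptide cleavage genes, Pcolce, which enhances cleavage of the C-terminal propeptide, fell by 0.47 (adjusted p = 0.0166) and Adamts3, a protease of the N-terminal propeptide, fell by 0.50 (adjusted p = 0.0299) in p27-/- IL. Their fold changes in p27-/-;Sox2+/- IL, -0.20 and 0.06, did not pass. Mrc2, a receptor that takes up collagen fragments, fell by 0.63 in p27-/- IL (adjusted p = 0.0344) and had -0.33 in p27-/-;Sox2+/- IL. The calls of these 4 genes also rested on few libraries. P4ha1 lost its call without WT 3 (adjusted p = 0.0509), WT 4 (0.0564), p27-/- 2 (0.0527) or p27-/- 3 (0.116). Pcolce lost it without p27-/- 2 (0.0557) or p27-/- 3 (0.0781), and Adamts3 without WT 2 (0.0502), WT 4 (0.0664), p27-/- 1 (0.135) or p27-/- 2 (0.0692). Mrc2 lost it without WT 1 (0.0532), WT 4 (0.0880), p27-/- 2 (0.125) or p27-/- 3 (0.151).

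By step, 1 of 15 hydroxylation and glycosylation genes, 2 of 6 propeptide cleavage genes, 1 of 9 receptors and 3 of 9 genes of degradation passed in p27-/- IL, beside 7.78% of all tested genes. With so few genes per step, these shares set no step apart. Among 7 genes of chaperones and export, 5 of cross-linking and 10 of fibril-binding proteins, 0 passed in p27-/- IL with limma. There 3, 1 and 3 of them had an unadjusted p under 0.05, beside 4155 of all 17268 tested genes.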

How the data were processed

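Bulk RNA-seq libraries of dissected IL, made with the Ovation RNA-seq System V2 kit, which does not mark strand, were used. The authors aligned reads with STAR 2.5.2a, counted them per gene with RSEM 1.3.30 on the Ensembl GRCm38 transcriptome, normalised with DESeq2 1.18.1 and deposited log2 values. The transformation is not named. Whether it pulls low genes towards their mean, which would understate their fold changes, was not tested. No counts were used, and depth per sample is unknown. Samples were grouped by the genotype label.

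Genes with a linear mean of 10 or more, 17268 in all, were fitted with limma 3.58.1 in R 4.3.3 (1 fit of 3 genotypes, mean-variance trend, two-sided, Benjamini-Hochberg over all tested genes, threshold 0.05), in place of a count test, after checks on simulated data. The simulated data had independent noise for each gene, so they did not cover shifts of tissue content between libraries. P-values weigh a difference against the spread between these mice, estimated over the 3 genotypes and moderated over all tested genes. The replicate numbers do not pair the samples. Gene positions and promoters are those of RefSeq GRCm38.p6, and exon lengths those of another build's annotation, used for lengths only.

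Members, classes, the 70 machinery genes, the marker lists and the rule for named genes (every member past the threshold, the main chains of types I, III, IV, V, VI, XV and XVIII, and machinery genes past the threshold, at most 8 per comparison) were chosen with earlier results of these data known. Alternatives were no filter, a mean of at least 50, array weights, only the groups compared, a fit without trend, quantile normalization, median centring, Xist as a covariate, a replicate block, each library left out and, chosen after seeing the data, fibroblast or posterior lobe marker means as covariates. Python 3.11.15 with pandas 2.3.3, numpy 2.4.6 and matplotlib 3.10.9 made the tables and plots.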

Additional observations from a re-analysis of the deposited data

Results flagged for a closer look

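In 44 measures, the 37 tested collagen genes and the 7 machinery genes that passed the test, the WT group of 4 was searched for a library that stands apart from the others. Chance alone flags about 1 in 20 groups, and 2 were found. Col19a1 was highest in WT 2, at 6.30 on the log2 scale with the other WT libraries between 6.14 and 6.16, a gap of 0.889 of the range. This library lay towards the mutants, and Col19a1 passed the test without it as well as with it. Col9a2 was lowest in WT 4, at 4.25 with the others between 4.53 and 4.58, a gap of 0.846 of the range.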

How the results depend on the processing

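Alternatives were computed for 26 named collagen and machinery genes, and no fold change of theirs that passed the test changed sign in any of them. Of 37 collagen genes, the number past the threshold in p27-/- IL was 4, and it was 2 with a mean of at least 50 (18 members left), 1 with the posterior lobe covariate, 0 with the fibroblast covariate and 2 to 5 with a library left out, 2 without any of p27-/- 1, 2 or 3. In p27-/-;Sox2+/- IL it was 4, and it was 2 with no filter, with a mean of at least 50 and with only the groups compared, 8 with array weights (3 higher, 5 lower, Col15a1 and Col18a1 among them), 2 with quantile normalization (2 higher, 0 lower), 1 with the replicate block, 1 with the posterior lobe and 0 with the fibroblast covariate. It ranged from 1 to 4 with a library left out, with 1 without WT 4, p27-/-;Sox2+/- 1 or p27-/-;Sox2+/- 2 and 2 without WT 3 or any of p27-/- 1, 2 or 3. Between the mutants it was 0 in every setting.

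Of the machinery genes, 7 passed in p27-/- IL, and 4 with only the groups compared, 1 with the block, 1 and 0 with the posterior lobe and fibroblast covariates and 2 to 9 with a library left out, 2 without WT 4, p27-/- 2 or p27-/- 3. In p27-/-;Sox2+/- IL 2 passed, and 1 with only the groups compared, with the block and with the posterior lobe covariate, 0 with the fibroblast covariate and 0 to 2 with a library left out, 0 without p27-/-;Sox2+/- 2 and 1 without WT 4 or p27-/-;Sox2+/- 3. Between the mutants 4 passed with array weights. Over all tested genes, the 1343 calls in p27-/- IL became 831 with no filter, 807 with only the groups compared, 595 with the block, 298 and 30 with the posterior lobe and fibroblast covariates and 403 to 1709 with a library left out (815 without WT 3, 690 without WT 4, 609, 572 and 403 without p27-/- 1, 2 and 3). The 468 calls in p27-/-;Sox2+/- IL became 260 with only the groups compared, 1240 with array weights, 209 with the block, 95 and 54 with the covariates and 80 to 658 with a library left out (219 without WT 4, and 193, 80 and 240 without p27-/-;Sox2+/- 1, 2 and 3). The 25 calls between the mutants became 6 with no filter, 45 with only the groups compared, 8 without the trend, 283 with array weights, 15 with quantile normalization, 2 with the block, 9 with the fibroblast covariate, and 0 to 41 with a library left out (41 without WT 1, 10 without WT 4, 4 without p27-/- 1, 2 without p27-/-;Sox2+/- 3 and 0 without any of the other mutant libraries). The causes of these shifts were not tested.

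The replicate numbers are shared between genotypes, but deviations of same-numbered libraries correlated between -0.238 and 0.182, so the numbers were not taken as pairs. Under the replicate block, 3 of the 37 collagen genes passed in p27-/- IL, and Col19a1 passed in both mutants (adjusted p = 0.0220 and 0.0326 with limma). With no counts, depth sets no limit that could be computed, and tests on counts were not run.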
